A study of Mus musculus with 15 samples.

Results

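The 10 genes described here build, load or switch on MHC class II, the peptide receptor that is read by CD4 T cells. They were *H2-Aa*, *H2-Ab1* and *H2-Eb1*, *H2-DMa*, *H2-DMb1* and *H2-DMb2*, *H2-Oa* and *H2-Ob*, *Cd74* and *Ciita*. They were chosen by gene symbol and known role, with earlier results of these data known. All 10 were found among the 23329 genes counted in each tumor. All 10 were also among the 14880 genes tested.

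RNA sequencing was carried out on 15 mouse tumors, 1 per mouse. The lymphomas, on C57BL/6, came from cervical lymph nodes of 4 *EμMyc* and 3 *EμMyc/Casp2-/-* mice, which develop tumors because an immunoglobulin heavy chain enhancer drives *Myc* in B lineage cells. The neuroblastomas, on Sv129/C57BL6, came from paraspinal thoracic masses of 4 *Th-MYCN* and 4 *Th-MYCN/Casp2-/-* mice, in which a tyrosine hydroxylase promoter drives *MYCN* in sympathetic precursors, and were picked for little or no blood vascularization. The *Casp2-/-* mice lack caspase-2, a protease with roles in cell death, from the germ line, so tumor cells and host cells carried the deletion alike. Ages at onset spanned 13 to 19 weeks for the *EμMyc* and 8 to 12 weeks for the *EμMyc/Casp2-/-* group, which did not overlap, while the *Th-MYCN* group spanned 10 to 21 and the *Th-MYCN/Casp2-/-* group 15 to 24 weeks. Tumor type, site and strain changed together and cannot be told apart.

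Classical class II molecules are pairs of an α and a β chain (*H2-Aa* with *H2-Ab1*, and an Eα chain with *H2-Eb1*). They are made with the invariant chain *Cd74*, which fills the groove until H2-DM (*H2-DMa* with *H2-DMb1* or *H2-DMb2*) exchanges its remnant for peptide, and H2-O (*H2-Oa* with *H2-Ob*), found mostly in B cells, holds H2-DM back. *Ciita* does not bind DNA but joins the factors on the X and Y boxes of these promoters and is the switch for the whole set, which is on in B cells, dendritic cells and activated macrophages and off in most other cells.

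Of these genes, 8 lie within 224 kb of chromosome 17 (17:34092340 to 34316674, GRCm38) and *Ciita* lies on chromosome 16 (16:10480059 to 10528418). RefSeq windows (GRCm38.p6) of 250 bases before to 50 bases after the start of transcription were at hand for 7 of the 10 genes, all on chromosome 17, with 8 windows since *H2-DMa* had 2. The letters TGATTGG, the core of the Y box, were found in the windows of 6 of the 7 genes on the coding strand and in neither *H2-DMa* window. On either strand they occurred in 7.82% of all 32851 promoter windows. The letters ATGATG, within the X box, occurred in 11.2% of all windows on either strand and in 4 of the 7 genes. In these 4 genes ATGATG stood 15 to 18 bases before TGATTGG, an order and distance found in 5 of the 32851 windows. Letters and distance were chosen after the windows were read, so the counts are a description. The stretches around the Y core are shown because they hold letters of the boxes through which *Ciita* acts. Use of these boxes in the tumors was not tested. All of the genes shown were higher in the lymphomas, as given below, and so was *H2-DMa*, whose windows held neither core. Capitals mark both cores, and each stretch of 87 bases is written 5′ to 3′ along its gene.
H2-Eb1 (17:34305746-34305832, plus strand): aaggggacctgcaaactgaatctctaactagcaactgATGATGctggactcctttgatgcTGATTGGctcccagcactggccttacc
H2-DMb1 (17:34153068-34153154, plus strand): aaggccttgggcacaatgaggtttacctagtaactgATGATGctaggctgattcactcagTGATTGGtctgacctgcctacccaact
H2-DMb2 (17:34145097-34145183, plus strand): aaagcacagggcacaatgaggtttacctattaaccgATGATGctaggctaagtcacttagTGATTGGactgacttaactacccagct
H2-Ob (17:34238786-34238872, plus strand): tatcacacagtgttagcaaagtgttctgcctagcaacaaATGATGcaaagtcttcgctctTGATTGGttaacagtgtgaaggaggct
H2-Aa (17:34287847-34287933, minus strand): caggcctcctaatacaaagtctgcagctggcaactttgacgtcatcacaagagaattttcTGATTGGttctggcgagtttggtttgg
H2-Oa (17:34092274-34092360, plus strand): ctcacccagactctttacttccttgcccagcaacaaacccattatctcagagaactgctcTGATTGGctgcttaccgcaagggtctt

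In the 4 genes with both cores, 15 bases lay between them in *H2-Ob*, 17 in *H2-Eb1* and 18 in *H2-DMb1* and *H2-DMb2*. *H2-DMb1* and *H2-DMb2* are close copies, and 22.7% and 25.9% of the 50-base words of their transcripts also occurred in another gene. Reads that match several places were not counted, so this shared sequence is missing from both values. Reads were counted on 1 strand of libraries that did not keep strand. *H2-Oa* overlaps *BC051537*, and its count is uncertain for that reason, since its either-strand count was only 75.2% of the sum of both strands, against 100% or nearly so for the other 9 genes.

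Counted reads ranged from 4940464 to 17638029 per tumor, with *EμMyc/Casp2-/-* tumor EuMycC2ko215 the lowest. *Casp2* itself, the check of the genotype labels, stood at 125 to 203 CPM (read counts scaled to library size) in *EμMyc* and at 51.9 to 76.1 CPM in *EμMyc/Casp2-/-* lymphomas. In neuroblastomas it was at 76.0 to 125 CPM in *Th-MYCN* and 39.6 to 80.2 CPM in *Th-MYCN/Casp2-/-* tumors, which overlapped. These are counts of the whole gene, and reads from outside a deleted stretch would be among them. The B cell markers *Cd79a* and *Pax5* were at 413 to 896 and 27.2 to 50.3 CPM in the lymphomas, and at no more than 2.83 and 0.123 CPM in the neuroblastomas. *Pax5* had no read in 6 of the 8 neuroblastomas.

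All 10 genes were higher in lymphomas than in neuroblastomas, for either *Casp2* genotype, with no overlap between the groups. The smallest difference was that of *H2-DMa*, at 7.78-fold, and the largest that of *H2-Ob*, at 327-fold, between the tumors with intact *Casp2*. Values in every tumor are given in 1 order. It is EuMyc614, EuMyc743b, EuMyc829 and EuMyc835 for *EμMyc*, EuMycC2ko215, EuMycC2ko239 and EuMycC2ko245 for *EμMyc/Casp2-/-*, MYCN175, MYCN235, MYCN332 and MYCN391 for *Th-MYCN* and MYCNC2ko118, MYCNC2ko144, MYCNC2ko176 and MYCNC2ko180 for *Th-MYCN/Casp2-/-* tumors, each named by its label.

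*H2-Aa*, the α chain of the classical A molecule, stood at 338, 69.5, 182 and 445 CPM in *EμMyc* and at 289.5, 597 and 245.3 CPM in *EμMyc/Casp2-/-* lymphomas. In *Th-MYCN* neuroblastomas it was at 21.3, 5.01, 12.9 and 28.5 CPM, and in *Th-MYCN/Casp2-/-* neuroblastomas at 7.35, 9.12, 15.6 and 23.1 CPM. The lowest lymphoma, EuMyc743b, was still above the highest neuroblastoma. The fitted difference was 15.2-fold with intact *Casp2* (log2 3.93 ± 0.55 SE, n = 4 and 4, FDR 1.30e-09 by edgeR likelihood ratio test) and 27.4-fold without it (log2 4.77 ± 0.60, n = 3 and 4, FDR 4.21e-12). *H2-Ab1*, its β chain, was at 93.8 to 643 CPM in lymphomas and 3.70 to 25.5 CPM in neuroblastomas, and *H2-Eb1*, the β chain of the E molecule, at 61.5 to 648 and 4.14 to 21.5 CPM. *H2-Ab1* was 22.3-fold and *H2-Eb1* 22.5-fold higher in the lymphomas with intact *Casp2*. *H2-Ea-ps*, under which the files list the Eα chain that is inactive in C57BL/6 mice, was at no more than 0.404 CPM in any tumor.

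*Cd74* was the most abundant of the genes. It stood at 1182, 157, 901 and 1962 CPM in *EμMyc* and at 853, 1650.2 and 1130.4 CPM in *EμMyc/Casp2-/-* lymphomas, against 39.2, 8.06, 25.6 and 44.8 CPM in *Th-MYCN* and 13.7, 25.2, 23.8 and 50.6 CPM in *Th-MYCN/Casp2-/-* neuroblastomas. The groups did not overlap, and *Cd74* was 35.7-fold and 42.7-fold higher in lymphomas with and without *Casp2*.

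The H2-DM genes differed among themselves. *H2-DMa* was at 6.93 to 69.4 CPM in lymphomas and 2.45 to 5.06 CPM in neuroblastomas, so that lymphoma EuMyc743b came close to the neuroblastomas. *H2-DMb1* stood at 41.8, 5.13, 23.9 and 52.1 CPM in *EμMyc* and at 18.6, 53.7 and 41.3 CPM in *EμMyc/Casp2-/-* lymphomas, and at 1.08 to 4.01 CPM in neuroblastomas. *H2-DMb2* stood at 39.9, 2.57, 31.3 and 79.6 CPM in *EμMyc* and at 13.9, 73.7 and 49.9 CPM in *EμMyc/Casp2-/-* lymphomas, but had only 0 to 9 reads per neuroblastoma (0 to 0.578 CPM). The tumor with 0 reads, *Th-MYCN/Casp2-/-* MYCNC2ko176, allows up to 0.290 CPM by a limit of 3 reads, which covers counting error only. The ratio of *H2-DMb2* to *H2-DMb1* reads was 0.50 to 1.53 in lymphomas and 0 to 0.375 in neuroblastomas. The tumor type difference was 138-fold and 189-fold for *H2-DMb2*, against 11.8-fold and 23.0-fold for *H2-DMb1*, in tumors with and without *Casp2*.

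The H2-O genes were close to absent from most neuroblastomas. *H2-Ob* stood at 106, 26.5, 194 and 151 CPM in *EμMyc* and at 147, 219.6 and 169 CPM in *EμMyc/Casp2-/-* lymphomas. It had 7, 1, 3 and 12 reads in *Th-MYCN* and 1, 45, 5 and 3 reads in *Th-MYCN/Casp2-/-* neuroblastomas, so that tumor MYCNC2ko144 held 45 of the 77 *H2-Ob* reads in all 8. *H2-Oa* was at 1.37 to 24.1 CPM in lymphomas and had 0 to 15 reads per neuroblastoma, with 15 of 26 in tumor MYCNC2ko144. Their fold differences, 327-fold and 189-fold for *H2-Ob* and 75.1-fold and 35.5-fold for *H2-Oa*, rest on these few reads.

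*Ciita* stood at 38.4, 6.84, 73.7 and 68.8 CPM in *EμMyc* and at 13.9, 168 and 64.2 CPM in *EμMyc/Casp2-/-* lymphomas. In the neuroblastomas it had 9 to 22 reads, or 0.611 to 1.36 CPM, in every tumor. It was 47.2-fold higher in the lymphomas with intact *Casp2* (log2 5.56 ± 0.67, FDR 1.57e-11) and 80.5-fold higher in those without (log2 6.33 ± 0.73, FDR 3.35e-13).

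**Figure D1:**
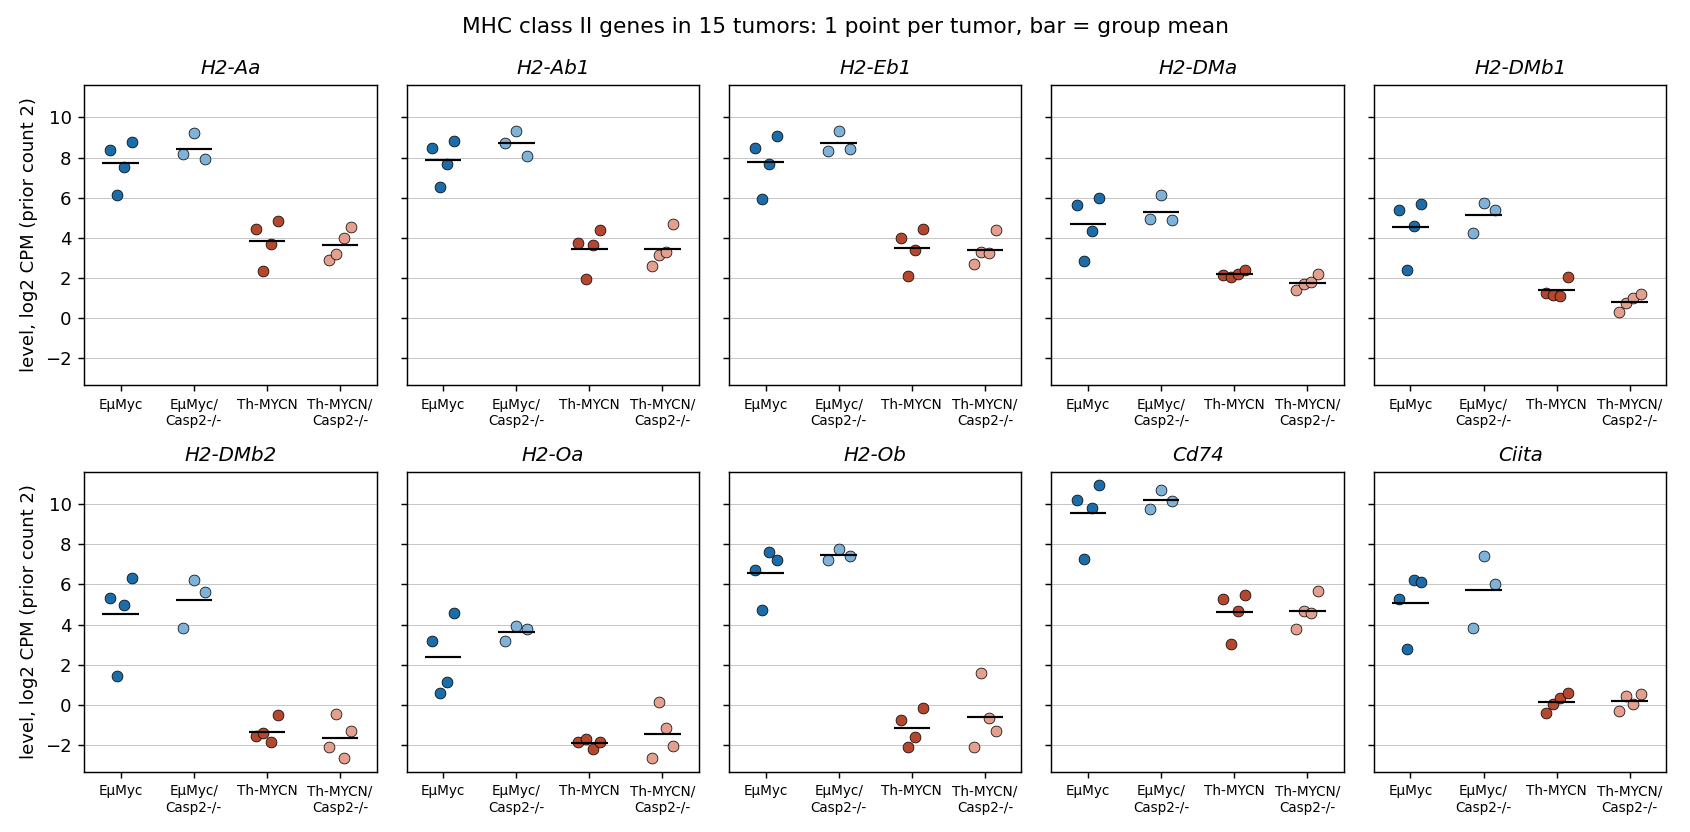
Level of the 10 MHC class II genes in log2 CPM (vertical axis, prior count 2) in the 4 groups (horizontal axis), with 1 point per tumor and a bar at the group mean. Every lymphoma lies above every neuroblastoma for each gene, and the lowest point among the lymphomas is tumor EuMyc743b in all 10 panels. The gap is narrowest for H2-DMb1, with EuMyc743b at 2.40 and neuroblastoma MYCN391 at 2.06.

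All 10 genes were thus called higher (FDR under 0.05 and over 2-fold, edgeR likelihood ratio test) in *EμMyc* than in *Th-MYCN* tumors, where 18.9% of all tested genes were called higher, and in *EμMyc/Casp2-/-* than in *Th-MYCN/Casp2-/-* tumors, where 20.5% were. Without overlap between groups, 26.4% and 23.6% of all genes were higher in the lymphomas. The quasi-likelihood test, which called 18.3% and 19.7% of all genes higher, and DESeq2, which called 17.6% and 19.4%, also called all 10 in both. The median log2 difference of the 10 genes was 4.83 and 5.21, against -0.036 and -0.049 over all genes. These are bulk tumors, and fewer cells of a type cannot be told apart from less RNA per cell.

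Levels between genes were compared per kb of exon. *Cd74* ranked first of the 10 in both tumor types, with a median of 673 CPM per kb in lymphomas and 15.1 in neuroblastomas, and was above *H2-Eb1* in 7 of 7 and 8 of 8 tumors. *H2-Eb1*, *H2-Ab1* and *H2-Aa* followed in this order in both, with medians of 179, 140.0 and 76.2 CPM per kb in lymphomas and 5.14, 4.31 and 3.76 in neuroblastomas. *H2-Eb1* exceeded *H2-Ab1* in 5 of 7 lymphomas and 8 of 8 neuroblastomas, so their order among lymphomas varied. This ranking depends on exon length over all transcripts, at 1.94 kb for *H2-Eb1*, 2.57 kb for *H2-Ab1* and 3.80 kb for *H2-Aa*. In reads not divided by length, median ratios to *H2-Aa* in lymphomas were 1.12 for *H2-Eb1* and 1.11 for *H2-Ab1*. In neuroblastomas they were 0.810 and 0.776, so *H2-Aa* mostly had the most reads there. *H2-Ob* ranked 5 of 10 in lymphomas, at 28.1 CPM per kb, and 10 of 10 in neuroblastomas, at 0.0624. *H2-DMb1* and *H2-DMb2* were not ordered in lymphomas, where *H2-DMb1* was the higher in 3 of 7 tumors. *Ciita* and *H2-Oa* lay at the lower end in both tumor types and were not ordered either, *Ciita* being above *H2-Oa* in 2 of 7 lymphomas and 4 of 8 neuroblastomas.

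Between genotypes, none of the 10 genes was called, in lymphomas or in neuroblastomas. In *EμMyc/Casp2-/-* against *EμMyc* lymphomas, all 10 fitted differences were above 0, from log2 0.21 for *Cd74* to 0.81 for *Ciita* with a median of 0.50, while the median over all genes was -0.027. Of the 10 genes, 0 passed the likelihood ratio test, where 1.44% of all genes were called in either direction, 0 the quasi-likelihood test, where 0.141% were, and 0 DESeq2, where 1.36% were. By either edgeR test, 0 of 10 had an unadjusted p under 0.05. The groups overlapped for all 10, and did not for 3.7% of all genes. *Ciita* was 1.75-fold higher (FDR 0.803) with a 95% interval of 0.678-fold to 4.52-fold. *H2-Ab1* was 1.60-fold higher (FDR 0.801, interval 0.727-fold to 3.52-fold), *H2-Aa* 1.46-fold (0.649-fold to 3.28-fold) and *Cd74* 1.153-fold (0.486-fold to 2.74-fold). The intervals of all 10 reached 2.61-fold or more, so a doubling was within the range these tumors allow.

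For 5 of the 10 genes the direction rested on single tumors. Without *EμMyc* tumor EuMyc743b, the lowest, the log2 differences of *H2-DMa*, *H2-DMb1*, *H2-DMb2* and *Cd74* were -0.04, -0.05, -0.13 and -0.16. Without *EμMyc/Casp2-/-* tumor EuMycC2ko239, the highest for 7 of the 10 genes, those of *Ciita*, *H2-DMa*, *H2-DMb1*, *H2-DMb2* and *Cd74* were -0.24, -0.22, -0.02, -0.25 and -0.07. For *H2-Aa*, *H2-Ab1*, *H2-Eb1*, *H2-Oa* and *H2-Ob* the difference was above 0 with each tumor left out and under the other alternatives, at log2 0.058, 0.34, 0.22, 0.086 and 0.25 at the lowest, and none of these was called. Age at onset differed with genotype, and with age as a covariate 0 of 10 genes were called.

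In *Th-MYCN/Casp2-/-* against *Th-MYCN* neuroblastomas, 7 of 10 fitted differences were below 0 and the median was -0.11, against -0.0024 over all genes. Again 0 of 10 were called by the likelihood ratio test (0.813% of all genes), the quasi-likelihood test (0.0336%) or DESeq2 (0.78%), and 0 of 10 had an unadjusted p under 0.05 by either edgeR test. The groups overlapped for all 10, and did not for 6.62% of all genes. *H2-Aa* differed by log2 -0.30 ± 0.56 (fold 0.382 to 1.73 by its 95% interval), *H2-DMb1* by -0.66 ± 0.57 (0.294 to 1.37) and *Ciita* by 0.04 ± 0.70 (0.396 to 2.65). The 2 largest values were those of *H2-Oa*, at log2 1.53 ± 1.07 (FDR 0.875), and *H2-Ob*, at 1.37 ± 0.83 (FDR 0.811). Without tumor MYCNC2ko144 that of *H2-Oa* was 0.064 and that of *H2-Ob* -0.46. The difference between the 2 genotype effects was called for 0 of the 10 genes by the likelihood ratio test (0.914% of all genes), the quasi-likelihood test (0.0538%) and DESeq2 (0.827%), with 0 at an unadjusted p under 0.05 by either edgeR test, and its estimates ran from log2 -1.08 for *H2-Oa* to 0.96 for *H2-DMb1*.

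**Figure D2:**
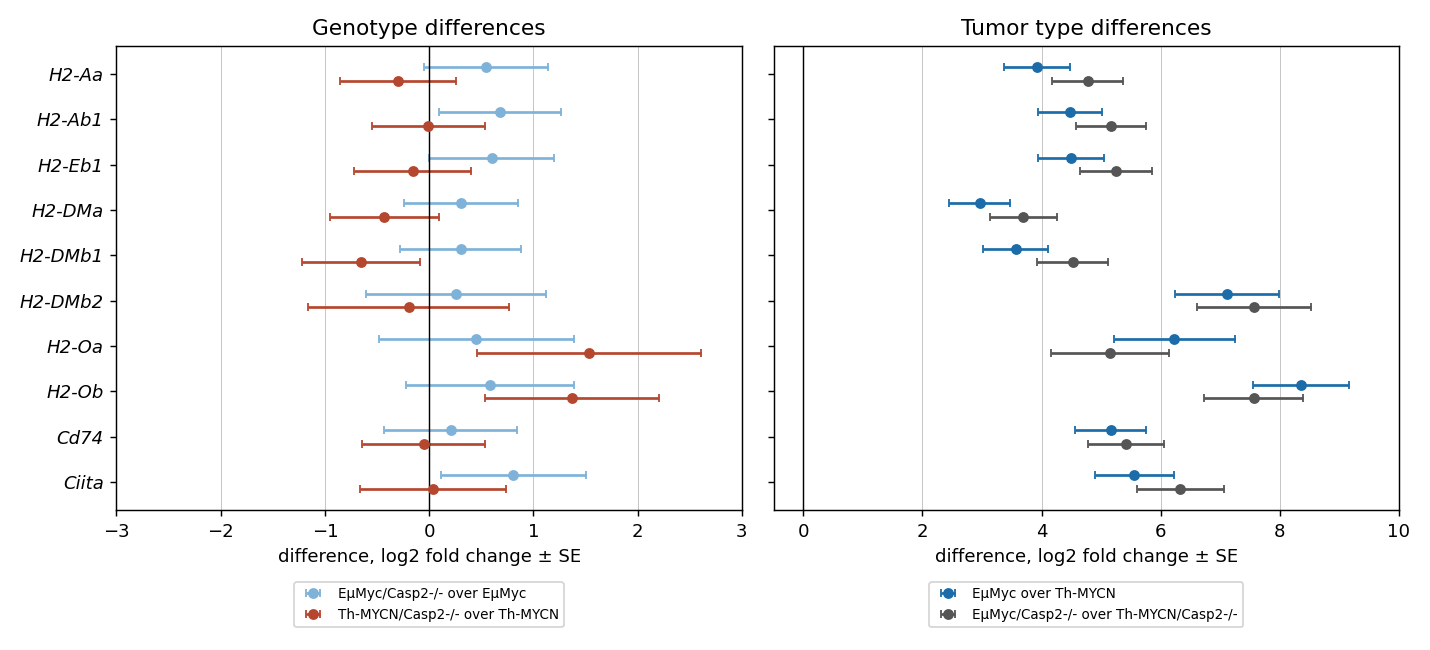
Fitted log2 fold changes (points) with their standard errors (bars) for each gene, between genotypes on the left and between tumor types on the right. The genotype differences lie from -0.66 to 1.53 around the line at 0, and the tumor type differences from 2.96 to 8.35.

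Within the lymphomas the genes varied over a wide range. *EμMyc* tumor EuMyc743b was the lowest of the 7 for all 10 genes. Its *Ciita* level was 9.72-fold, its *H2-DMb2* level 17.5-fold, its *Cd74* level 7.39-fold and its *H2-Aa* level 4.52-fold below the median of the other 6. *EμMyc/Casp2-/-* tumor EuMycC2ko239 was the highest for 7 genes and *EμMyc* tumor EuMyc835 for the other 3, which were *H2-DMb2*, *H2-Oa* and *Cd74*. The highest over the lowest lymphoma was 6.85-fold for *H2-Ab1*, 12.5-fold for *Cd74*, 24.6-fold for *Ciita* and 31.0-fold for *H2-DMb2*. *Vpreb1*, part of the surrogate light chain of precursor B cells, was at 60.1 CPM in EuMyc743b and at 0.394 to 4.30 CPM in the other lymphomas. The summed pre-B list, with 2 of its 8 genes at 0 in EuMyc743b, was at 587 CPM in it, at 1179 CPM in EuMycC2ko215 and at 260.3 to 459 CPM in the other 5. Over the B cell list, EuMyc743b had the lowest summed level, 1233 CPM against 1719 to 3655 CPM in the other 6, and over the macrophage list 1226 CPM against 338 to 1704 CPM. *Cd79a* in EuMyc743b was at 413 CPM. The part of these values in the low class II levels was not tested.

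*EμMyc/Casp2-/-* tumor EuMycC2ko215 was low for some of the genes only. *Ciita* in it was 4.795-fold, *H2-DMb2* 3.24-fold and *H2-DMb1* 2.24-fold below the median of the other 6 lymphomas, while *H2-Aa* was at 0.993 times and *H2-Ab1* at 1.36 times that median. Its ratio of *Cd74* to *Ciita* reads was 61.5, against 9.82 to 30.8 in the other lymphomas. This tumor held 71 *Ciita* reads. It also had the highest T cell marker sum, 1551 CPM against 95.2 to 247 CPM, with *Cd8a* at 362 CPM and *Cd3e* at 52.0 CPM against no more than 9.85 and 4.42 CPM in the other 6. *Rag1* stood at 358 CPM in it, the highest of the 7. Its macrophage sum, 1704 CPM, was also the highest. The part of these in its class II values was not tested.

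**Figure D3:**
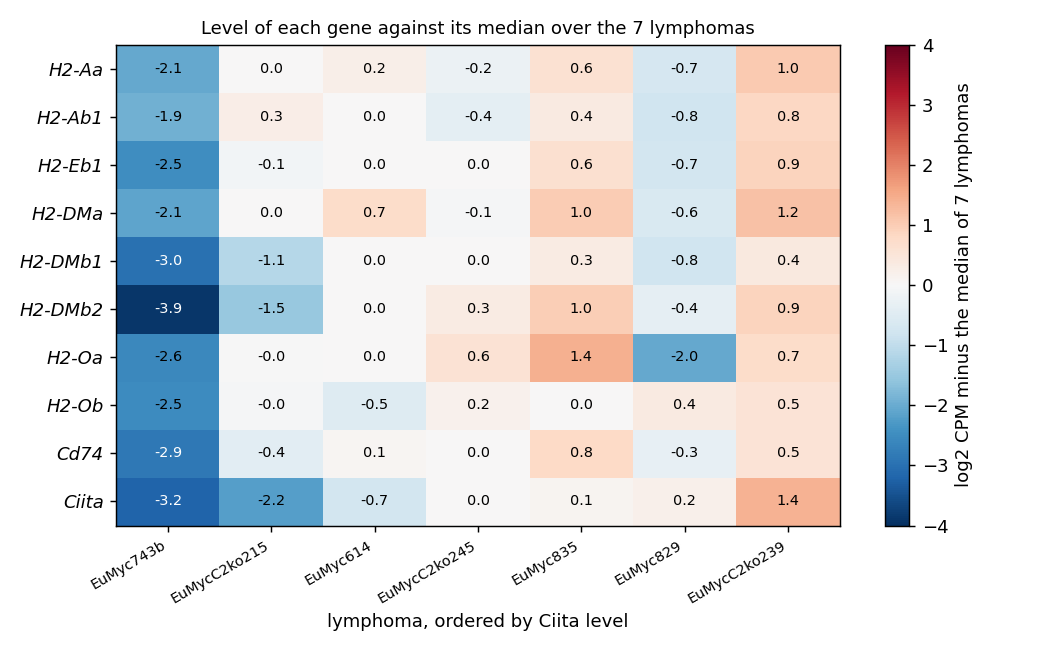
Each cell gives the log2 CPM of 1 gene (row) in 1 lymphoma (column) minus the median of that gene over the 7 lymphomas, with blue below and red above the median. Tumor EuMyc743b is below the median in all 10 rows, and tumor EuMycC2ko215 is below it mainly for Ciita, H2-DMb2 and H2-DMb1.

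The relation of *Ciita* to the other 9 genes was computed on log2 CPM within each tumor type, 18 relations in all. Over the 7 lymphomas Pearson's r ran from 0.561 for *H2-Oa* to 0.916 for *H2-DMb2*. For *H2-DMb2* Spearman's rho was 0.714, with 2-sided exact permutation p of 0.00476 for r and 0.0881 for rho, and the p of r adjusted over the 18 relations was 0.0518. The adjusted p was the same for *H2-DMb1* (r = 0.870, rho = 0.750, unadjusted exact p 0.0105 and 0.0663), *H2-Ob* (r = 0.826, rho = 0.929, exact p 0.0113 and 0.00675) and *Cd74* (r = 0.828, rho = 0.679, exact p 0.0115 and 0.110). *H2-Eb1* had r = 0.779 and rho = 0.607 (exact p 0.0349 and 0.167, adjusted p of r 0.126), and *H2-Aa* r = 0.750 and rho = 0.536 (exact p 0.0520 and 0.236, adjusted 0.147). No relation passed 0.05 after adjustment.

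Without the 2 lymphomas farthest from the median of *Ciita*, EuMyc743b and EuMycC2ko215, r fell to 0.516 for *H2-DMb2*, 0.278 for *H2-DMb1*, 0.377 for *Cd74* and 0.496 for *H2-Aa*, so these relations rested on those tumors. That of *H2-Ob* was 0.890 over the 5 tumors left (exact permutation p 0.0667, adjusted 0.3). Over the 8 neuroblastomas, where *Ciita* spanned only 9 to 22 reads, r was 0.328 to 0.609 and the adjusted exact p 0.227 to 0.464. Without tumors MYCN175 and MYCNC2ko118 r was 0.837 for *H2-Eb1*, 0.807 for *Cd74* and -0.020 for *H2-Oa*. The adjusted exact p was 0.3 for *H2-Eb1* and *Cd74* and 0.985 for *H2-Oa*.

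**Figure D4:**
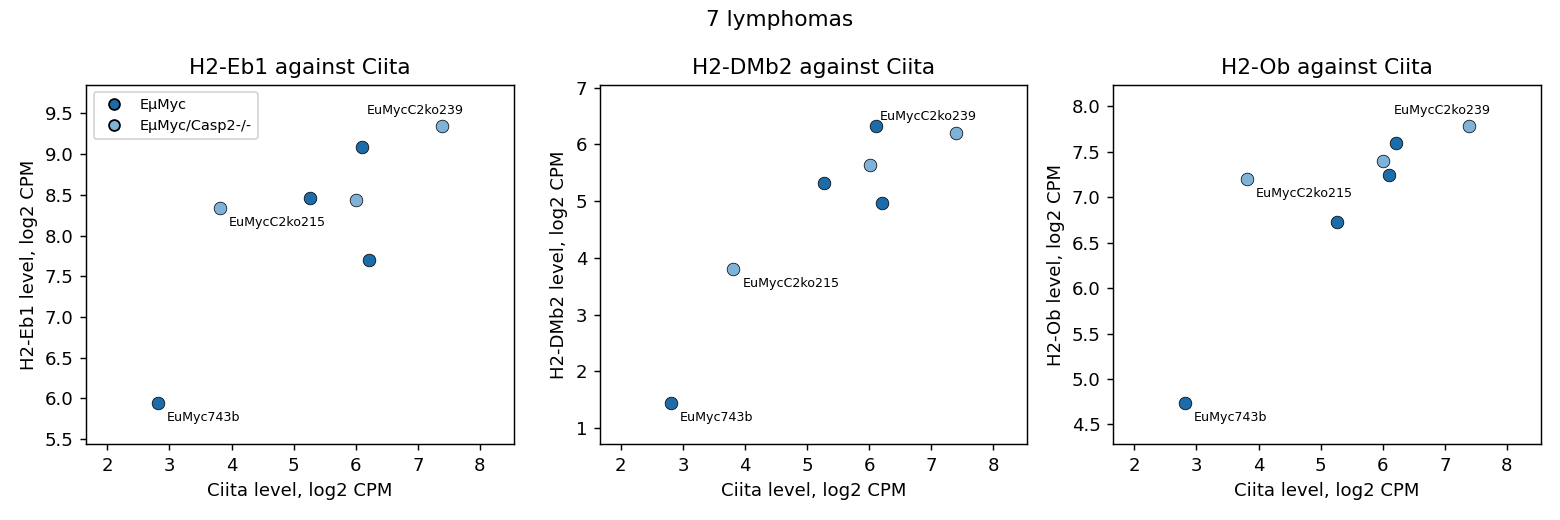
Levels of H2-Eb1, H2-DMb2 and H2-Ob (vertical axes) against Ciita (horizontal axis), all in log2 CPM, with 1 point per lymphoma and labels on the tumors named in the text. Tumor EuMyc743b is at the lower left in each panel, and tumor EuMycC2ko215 has low Ciita with H2-Eb1 and H2-Ob near those of the other lymphomas.

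The genes whose pattern was most like the mean log2 CPM of *H2-Aa*, *H2-Ab1*, *H2-Eb1* and *Cd74* over the 7 lymphomas were *Slfn8* (r = 0.965), *Cd2* (0.964), *Ptpn6* (0.956), *Gm16516* (0.955) and *Txndc16* (0.951). Their Spearman's rho was lower, at 0.821 to 0.893. Their r was not recomputed without EuMyc743b, the lymphoma with the lowest class II levels. *Ptpn6*, a tyrosine phosphatase of blood cells, ranged from 124 to 542 CPM. *Cd2*, an adhesion receptor of lymphocytes, ranged from 4.11 CPM in EuMyc743b to 122 CPM. The same 4 class II genes correlated less with *H2-Ob* (r = 0.855) and *Ciita* (0.771) than with *H2-DMa* (0.982). Over the 8 neuroblastomas the most alike were *Awat2* (0.956, at no more than 0.432 CPM), *Psmb8* (0.930), *Tap2* (0.928), *H2-K1* (0.925) and *Csf1r* (0.918). *Psmb8*, an immunoproteasome subunit, *Tap2*, a peptide transporter, and *H2-K1*, a class I heavy chain, serve class I presentation, and *Csf1r* is the growth factor receptor of macrophages. These genes had the highest r of 14691 genes compared in lymphomas and 14851 in neuroblastomas, the points share their libraries, and r is a description.

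In neuroblastomas *H2-Aa* and *H2-Ob* were highest in different tumors. *H2-Aa* was lowest in tumors MYCN235 and MYCNC2ko118, at 5.01 and 7.35 CPM, where *Csf1r* was at 27.2 and 24.7 CPM, and highest in MYCN391 and MYCNC2ko180, at 28.5 and 23.1 CPM, where *Csf1r* was at 45.0 and 42.1 CPM. *H2-Ob* was highest in tumor MYCNC2ko144 at 2.89 CPM, where *Cd79a* was at 2.83 CPM, also the highest of the 8. The other B cell genes did not all single out this tumor. *Cd79b*, named after its values were seen, was at 3.34 CPM in it and at 4.69 CPM in MYCN391, and the summed B cell list was at 23.6 CPM in it, below MYCN175 at 26.6 CPM and MYCNC2ko176 at 24.1 CPM. *H2-Aa* in tumor MYCNC2ko144 was at 9.12 CPM, the third lowest. *Csf1r* is among the genes chosen above for their likeness to the classical genes, so its match with *H2-Aa* is a description. The summed macrophage list broke from the order of *H2-Aa* in MYCN235, where *H2-Aa* was lowest and the sum was at 683 CPM. In the other tumors the sum mostly rose with *H2-Aa*. By rising *H2-Aa* it was at 380 CPM in MYCNC2ko118, 501 CPM in MYCNC2ko144 and 647 CPM in MYCN332. Then came 787 CPM in MYCNC2ko176, 771 CPM in MYCN175, 900 CPM in MYCNC2ko180 and 938 CPM in MYCN391. The summed macrophage list was at 647 to 938 CPM in *Th-MYCN* and 380 to 900 CPM in *Th-MYCN/Casp2-/-* tumors, within the 338 to 1704 CPM of the lymphomas. Of its 9 tested genes 1, *Mrc1*, was called higher in lymphomas in each comparison of tumor type. Of all tested genes 18.9% with *Casp2* and 20.5% without it were. The summed B cell list was at 10.9 to 26.6 CPM in neuroblastomas and 1233 to 3655 CPM in lymphomas, where all 7 of its genes were higher. Whether these cells carry the class II reads of the neuroblastomas was not tested.

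**Figure D5:**
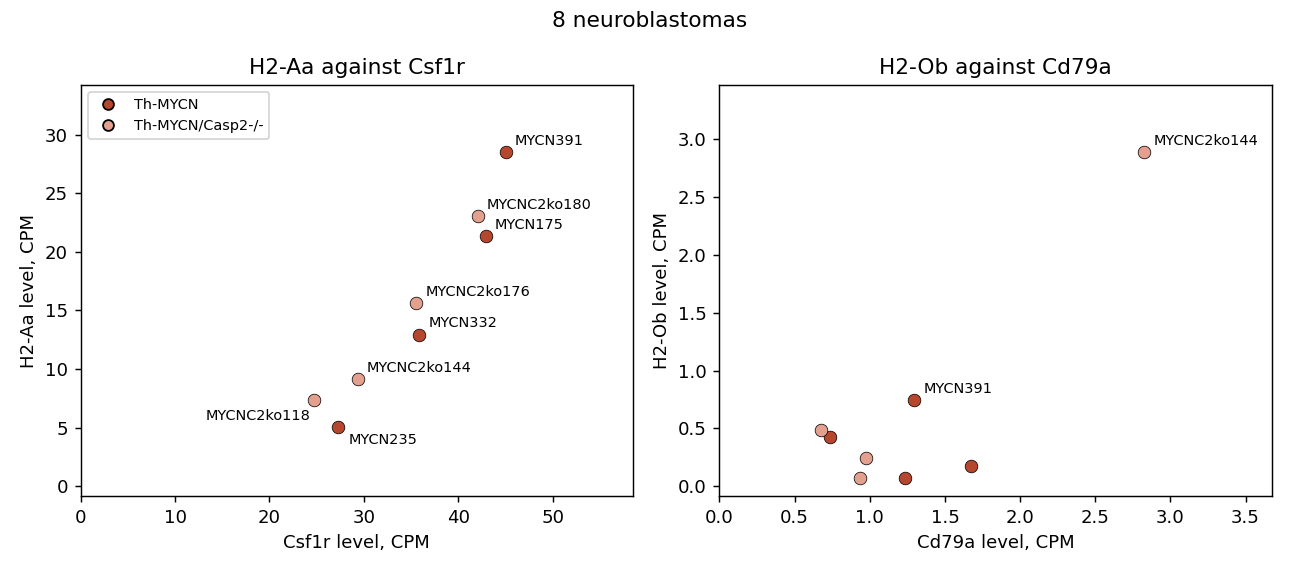
Levels in CPM of H2-Aa against the macrophage receptor gene Csf1r (left) and of H2-Ob against the B cell gene Cd79a (right), with 1 point per neuroblastoma. MYCN391 is the highest for both H2-Aa and Csf1r, and tumor MYCNC2ko144 stands alone at the upper right for H2-Ob and Cd79a.

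Other genes of class II presentation were taken from fixed lists. Of the 7 factors on the X and Y boxes, *Rfx5* and *Nfya* were called higher in lymphomas in both comparisons. Over all tested genes, 18.9% with *Casp2* and 20.5% without it were called higher. *Rfx5*, the DNA binding subunit of RFX, differed by log2 1.43 ± 0.36 with *Casp2* and 1.75 ± 0.39 without it, and *Nfya*, a subunit of NF-Y, by 1.18 ± 0.21 and 1.11 ± 0.22. None of the 7 was called lower. Their median differences, log2 0.46 and 0.42, were below those of the 10 class II genes. *H2-Eb2*, named as a further class II β chain after its values were seen, was at 17.2 to 62.0 CPM in lymphomas and at no more than 0.321 CPM in neuroblastomas.

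Of 10 tested genes that make peptides or turn over class II, 3 were higher and 1 lower in lymphomas with *Casp2*. In those without, 5 were higher and 1 lower. Among all tested genes, 18.9% and 20.5% were called higher. *Ifi30*, the lysosomal thiol reductase, was higher by log2 4.00 ± 0.30 and 4.09 ± 0.33, and the protease gene *Ctsh* by 1.501 ± 0.38 and 2.04 ± 0.41. *March8*, a ubiquitin ligase that can remove class II from the surface, was lower by log2 -2.97 ± 0.37 and -2.65 ± 0.40. Of the 5 genes that lie among the class II genes on chromosome 17, the 4 class I genes *Psmb8*, *Psmb9*, *Tap1* and *Tap2* were higher in both comparisons, by log2 3.87 to 5.89. The fifth, *Brd2*, a chromatin reader named after its values were seen, differed by log2 0.30 ± 0.18 and 0.00 ± 0.19 and was not called.

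Of 11 tested genes of the interferon γ pathway, an inducer of *Ciita*, 5 were higher with *Casp2* and 8 without it, and none was lower. The shares of all tested genes called higher were 18.9% and 20.5%. *Ifng* itself, named after its values were seen, was too low to be tested. It had 2 reads in *EμMyc*, 1 in *EμMyc/Casp2-/-*, 1 in *Th-MYCN* and 0 in *Th-MYCN/Casp2-/-* tumors. *Irf8* was higher by log2 4.28 and 5.01 and *Irf1* by 2.003 and 1.91. Of 7 costimulatory genes 6 were higher in both, among them *Cd40*, by log2 3.93 ± 0.67 and 4.17 ± 0.72. By genotype, 1 costimulatory gene, *Icosl*, was called higher in *EμMyc/Casp2-/-* lymphomas by the likelihood ratio test (log2 2.65 ± 0.72, FDR 0.0286) and not by the quasi-likelihood test (FDR 0.223), with values that overlapped. These tests called 1.44% and 0.141% of all genes there in either direction. No gene of the promoter, processing, chromosome 17 or interferon lists was called by genotype in either tumor type.

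Among cell type lists, 4 of 9 T cell genes were called higher in *EμMyc/Casp2-/-* lymphomas by the likelihood ratio test and 0 by the quasi-likelihood test. Of all genes, 1.44% and 0.141% were called in either direction by these tests. The summed T cell list was at 1551 CPM in EuMycC2ko215, 247 CPM in EuMycC2ko239 and 139 CPM in EuMycC2ko245, against 95.2 to 214 CPM in *EμMyc*. Of 3 tested mature B cell genes, *Cr2* was called higher by the first test only. It was at 2.32 to 56.8 CPM (median 3.52) in *EμMyc/Casp2-/-* and at 0.0855 to 1.17 CPM in *EμMyc* lymphomas. The pre-B list had 0 of 6 called and the plasma cell list 0 of 4 by genotype in lymphomas. Of 8 neuroblast genes 1, *Gata3*, which T cells also use, was called higher in *EμMyc/Casp2-/-* lymphomas by the likelihood ratio test (log2 3.78 ± 0.86, FDR 0.00296) and not by the quasi-likelihood test (FDR 0.223), with groups that overlapped and 52 of the 67 reads of the *EμMyc/Casp2-/-* group in EuMycC2ko215. In neuroblastomas, 1 of 7 dendritic cell genes, *Batf3*, and 2 of 5 endothelial genes, *Pecam1* and *Kdr*, were called lower without *Casp2* by the likelihood ratio test and none by the quasi-likelihood test. There the tests called 0.813% and 0.0336% of all genes in either direction. All 8 neuroblast genes were lower in lymphomas in both comparisons.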

How the data were processed

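RNA was measured by poly(A) mRNA sequencing of 15 tumors, 1 library per mouse. The deposited values are read counts per gene that the authors made with STAR on mm10 (GRCm38), with FastQC and edgeR also named in the submitters' notes and versions not given in the sources used here. Each file holds an either-strand count and a count for each strand. The last column, for the second strand, was analysed as in the study although the libraries did not keep strand, so it holds about 50% of the reads of most of the 10 genes. Rows of unmapped, multimapping and unassigned reads were left out of library sizes. The filter kept genes that exceeded 1 CPM in 3 or more tumors.

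Counts were scaled by TMM and fitted with edgeR 4.0.16 (R 4.3.3), as 4 group means. Calls needed a Benjamini-Hochberg FDR under 0.05 by the likelihood ratio test and a log2 fold change over 1. The quasi-likelihood test and DESeq2 1.42.0 were run beside it. Library sizes were TMM-scaled for CPM, log2 CPM used a prior count of 2, and 95% intervals came from the standard errors. The fit was tested on simulated data. Mouse numbers were used as tumor names, and every tumor came from its own mouse. In 21 pairs of tumors of the same group, counts differed by 16.2 to 76.0 chi-square per degree of freedom, which is beyond sampling noise. Exon lengths came from GENCODE M21.

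The members and gene lists were chosen with earlier results of these data known. All 10 genes are named. From each other list, at most 4 called genes with the smallest FDR per comparison are named, with Csf1r, C1qa, Cd79a, Pax5, Cd3e, Cd8a, Rag1, Vpreb1 and H2-Ea-ps as markers and the 5 most alike genes per tumor type. A further marker is not reported here and was left out of its list. Alternatives were the other tests, RLE scaling, no filter, the either-strand column, age at onset, only the groups compared and each tumor left out.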

Additional observations from a re-analysis of the deposited data

Results flagged for a closer look

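Each gene was checked for a tumor far from the others in the 3 groups of 4 tumors, which gave 30 checks, and chance alone flags about 1 in 20. In 2 of them the gap of 1 tumor to the rest exceeded the critical share of the range. *H2-DMb1* stood at 4.01 CPM in *Th-MYCN* tumor MYCN391, with the other 3 tumors at 2.02 to 2.20 CPM and a gap of 0.910 of the range. *Itgax*, a dendritic cell and macrophage integrin, was also highest in this tumor, at 40.2 CPM against 4.34 to 8.06 CPM in the other 7 neuroblastomas. The summed dendritic cell list was at 55.0 CPM there, most of it *Itgax*, against 19.4 to 25.7 CPM in the other 7. *Zbtb46*, another gene of that list, went the other way. It reached no more than 11.7 CPM in this tumor and the rest of its group. All 4 *Th-MYCN/Casp2-/-* tumors were above that, at 13.4 to 16.9 CPM. *H2-Ob* stood at 2.89 CPM (45 reads) in *Th-MYCN/Casp2-/-* tumor MYCNC2ko144, with the other 3 at 0.0720 to 0.482 CPM and a gap of 0.855. The part of other cell types in either value was not tested.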

How the results depend on the processing

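Under every alternative run (other tests, RLE scaling, no filter, the either-strand column, age at onset, only the groups compared and each tumor left out), 10 of 10 genes were called higher in lymphomas for either *Casp2* genotype and 0 of 10 were called by genotype or for the difference of the genotype effects. Over these alternatives the tumor type differences ran from log2 2.52 to 9.39 and the FDR reached at most 5.97e-04. The FDR of genotype differences was at least 0.514 in lymphomas and 0.585 in neuroblastomas. Only uncalled differences turned. In neuroblastomas that of *H2-Ab1* was 0.0033 with DESeq2, 0.0033 with RLE and 0.0035 without a filter, and that of *H2-DMb2* was 0.21 in the either-strand column. With age at onset, the difference of genotype effects was 1.07 for *H2-Oa* and 0.031 for *H2-Ob*.

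With each tumor left out, the genotype difference in neuroblastomas ran from -0.65 to 0.072 for *H2-Aa*, -0.60 to 0.35 for *H2-Ab1*, -0.59 to 0.20 for *H2-Eb1*, -1.23 to 0.42 for *H2-DMb2*, -0.46 to 1.995 for *H2-Ob*, -0.48 to 0.22 for *Cd74* and -0.13 to 0.23 for *Ciita*. In lymphomas it ran from -0.22 to 0.75 for *H2-DMa*, -0.049 to 0.69 for *H2-DMb1*, -0.25 to 0.90 for *H2-DMb2*, -0.16 to 0.70 for *Cd74* and -0.24 to 1.33 for *Ciita*. The difference of the genotype effects ran from -0.16 to 1.49 for *H2-DMb2*, -1.51 to 0.38 for *H2-Oa*, -1.41 to 1.04 for *H2-Ob*, -0.11 to 0.75 for *Cd74* and -0.28 to 1.29 for *Ciita*. The r of *Ciita* with *H2-Oa* in neuroblastomas was -0.020 without tumors MYCN175 and MYCNC2ko118. The cause of these turns was not tested. No paired analysis was possible because every tumor came from its own mouse and no number recurs between groups. Depth limits *H2-DMb2*, *H2-Oa* and *H2-Ob* in neuroblastomas, where most tumors had fewer than 10 reads.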
